A study of Caenorhabditis elegans with 6 samples.

Results

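Superoxide dismutases, catalases and peroxiredoxins are the enzymes that remove superoxide and hydrogen peroxide. The genes described are the 5 superoxide dismutase genes *sod-1* to *sod-5*, the 3 catalase genes *ctl-1* to *ctl-3* and the peroxiredoxin genes *prdx-2* and *prdx-3* of *C. elegans*. They were chosen by name, and all 10 were found among the 46778 gene identifiers of the count data. RNA came from whole, age-synchronized young adults kept at 20 °C without starvation. 3 libraries were from wild type N2 animals and 3 from *vhl-1(ok161)* animals, which carry a null allele of the worm VHL gene in every cell. Each library held between 52462303 and 82910026 reads on genes. Whole animals were extracted, so fewer cells of a type and less RNA per cell cannot be told apart.

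Superoxide dismutases turn superoxide into hydrogen peroxide and oxygen. Catalases split hydrogen peroxide into water and oxygen, and peroxiredoxins reduce it with electrons from thioredoxin. *sod-1* and *sod-5* encode copper/zinc enzymes of the cytosol, *sod-2* and *sod-3* encode manganese enzymes of the mitochondrion, and *sod-4* encodes a copper/zinc enzyme that is secreted or bound to the cell surface. CTL-1 is a cytosolic and CTL-2 a peroxisomal catalase, PRDX-2 is cytosolic and PRDX-3 mitochondrial. No compartment was assigned to CTL-3. *sod-3* is widely used as a readout of DAF-16, the FOXO transcription factor of the insulin pathway. VHL-1 marks the hypoxia-inducible factor HIF-1 for degradation, so the comparison asks whether the mRNA of these enzymes differed in animals without *vhl-1*.

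No gene of the 10 passed the threshold, an adjusted p under 0.05 in edgeR's quasi-likelihood test, in either direction, while over all 16596 genes tested 1.25% passed, 0.874% as higher and 0.374% as lower in *vhl-1* mutants. DESeq2 also called 0 of the 10, against 647 of these 16596 genes. At an unadjusted p under 0.05, 1 of the 10 was found (*ctl-2*), against 9.38% of all genes tested. The libraries of both genotypes did not overlap for 2 of the 10 (*sod-3* and *ctl-2*, both lower in *vhl-1* mutants), against 14.4% of all genes. The median log2 fold change was -0.03 over the 10 genes and 0.01 over all genes. For 6 of the 10 genes the 95% interval of the fold change, which is not adjusted for the number of genes, lay within a 2-fold change either way. These were *sod-1*, *sod-2*, *sod-4*, *ctl-2*, *prdx-2* and *prdx-3*. Such an interval was found for 11745 of the 16596 genes tested, so it does not set the 10 genes apart.

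The labels were checked first. *vhl-1* mRNA had a mean of 6.98 CPM (reads of a gene relative to the size of its library, scaled by the TMM method) in wild type animals and 0.0454 CPM in *vhl-1* mutants. Of 12 HIF-1 target genes listed with earlier results of these data known, 11 were higher in *vhl-1* mutants past the threshold, with a median log2 fold change of 2.76. *rhy-1*, a regulator of HIF-1 signaling, was among them (log2 fold change 2.98, edgeR adjusted p = 0.0014). Since that list was made with results known, the check of the labels rests on *vhl-1* itself. Intestinal markers summed to between 1766 and 1979 CPM in wild type animals and between 1802 and 2152 CPM in *vhl-1* mutants. The summed body muscle markers ranged from 6653 to 7365 CPM and from 5964 to 6974 CPM.

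**Figure D1:**
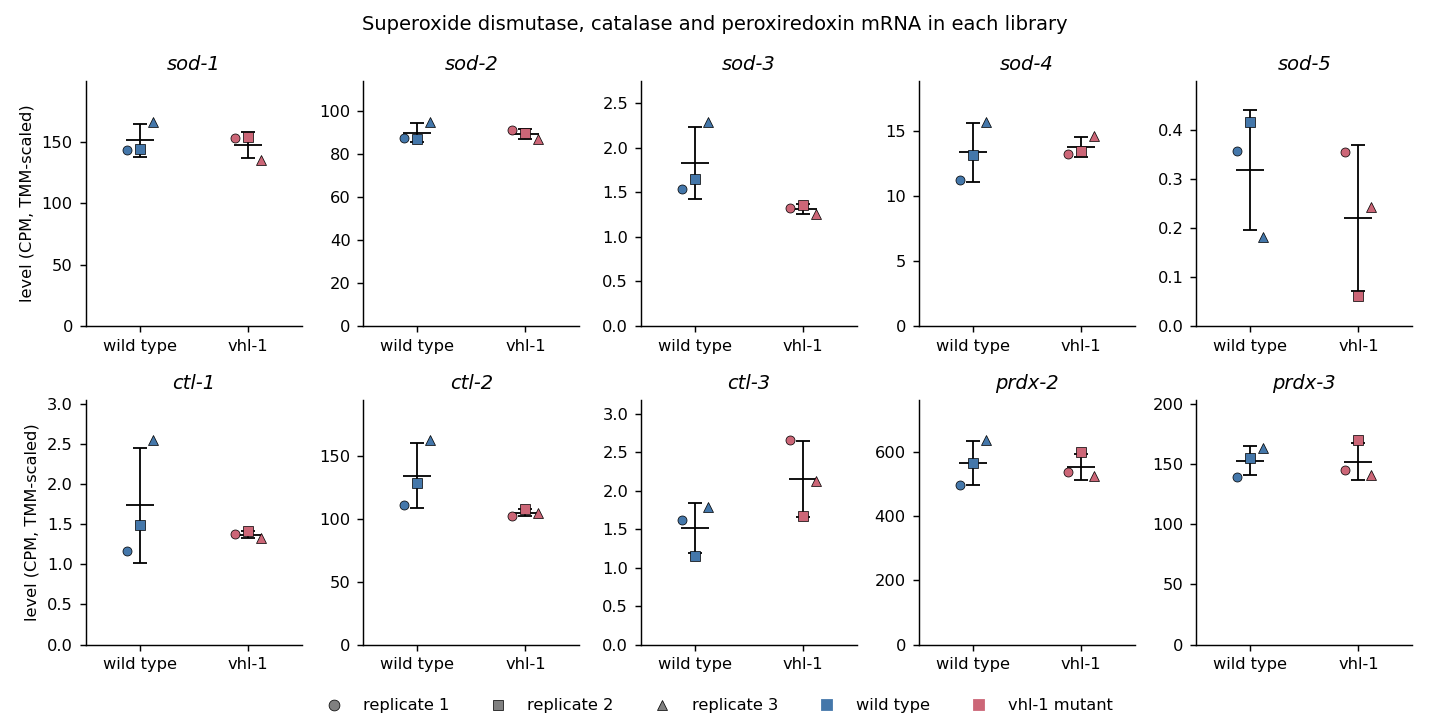
Level of each gene in every library, in CPM on axes that start at 0, with wild type libraries in blue and *vhl-1* libraries in red. Symbols give the replicate number, the horizontal line is the mean and the bars are the SD (n = 3). The genotypes overlap for 8 of the 10 genes, and every *vhl-1* library lies below the lowest wild type library for *sod-3* and *ctl-2*.

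The cytosolic copper/zinc dismutase *sod-1* (WBGene00004930) lies on chromosome II of WBcel235 from 6972706 to 6973887. It had 143, 144 and 166 CPM in the wild type libraries and 153, 154 and 135 CPM in the *vhl-1* libraries. The genotypes overlapped, with the highest library in wild type animals and the lowest among the mutants. The log2 fold change of *sod-1* was -0.04 (standard error, SE, 0.10, 95% interval -0.27 to 0.20, edgeR adjusted p = 1.00). Its exons share 85 bases with the noncoding gene *C15F1.13* on the opposite strand, which had at most 2 reads in a library.

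The mitochondrial manganese dismutase *sod-2* (WBGene00004931) lies on chromosome I from 8434550 to 8435807. *sod-2* had 87.4, 87.0 and 94.8 CPM in wild type animals and 91.3, 89.5 and 86.8 CPM in *vhl-1* mutants. It was the steadiest gene of the 10, with a coefficient of variation of 4.89% among wild type and 2.52% among *vhl-1* libraries. For *sod-2* the log2 fold change was -0.01 (SE 0.08, 95% interval -0.19 to 0.17, edgeR adjusted p = 1.00). *sod-2* shares 21 exonic bases with *dpt-1* on the opposite strand, whose log2 fold change was -0.02.

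*sod-3* (WBGene00004932), the second mitochondrial manganese dismutase, lies on chromosome X from 17092753 to 17094306. It was a weakly expressed gene, counted with 77 to 121 reads in a library. The wild type libraries had 1.54, 1.65 and 2.29 CPM, and the *vhl-1* libraries had 1.33, 1.35 and 1.25 CPM. Every *vhl-1* library was below the lowest wild type library, and the third wild type library stood above the other two. The mean in *vhl-1* mutants was 71.8% of the wild type mean. The log2 fold change of -0.47 (SE 0.22, 95% interval -1.01 to 0.06) did not pass the threshold (edgeR adjusted p = 0.63, DESeq2 adjusted p = 0.60). Without the third wild type library it was -0.29, and without the first it was -0.58. Of the 881 exonic bases of *sod-3*, 65 are shared with *C08A9.3* and 24 with *lido-1*, both on the opposite strand. For *lido-1* the log2 fold change was 0.20 (edgeR adjusted p = 0.89), and *C08A9.3* had at most 7 reads in a library.

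*sod-4* (WBGene00004933), the gene of the secreted or membrane-bound enzyme, lies on chromosome III from 9496884 to 9500375. It had 11.3, 13.1 and 15.7 CPM in wild type animals and 13.2, 13.5 and 14.7 CPM in *vhl-1* mutants, so that every *vhl-1* library lay inside the wild type range. Its log2 fold change was 0.04 (SE 0.15, 95% interval -0.33 to 0.41, edgeR adjusted p = 1.00). Leaving out the first wild type library gave -0.07, and leaving out the third *vhl-1* library gave -0.00063. *sod-4* shares 175 of its 1306 exonic bases with *ctr-9* on the opposite strand, and *ctr-9* had a log2 fold change of 0.03.

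*sod-5* (WBGene00007036), the second cytosolic copper/zinc dismutase, lies on chromosome II from 4417633 to 4419130 and was the least expressed gene of the 10. The wild type libraries held 28, 26 and 9 reads of *sod-5*, and the *vhl-1* libraries held 30, 5 and 15. These reads correspond to 0.356, 0.416 and 0.181 CPM and to 0.356, 0.0614 and 0.243 CPM. The genotypes overlapped, and the first *vhl-1* library held 30 reads where the second held 5. The log2 fold change was -0.54 (SE 0.62) with an edgeR adjusted p of 0.96, and its 95% interval from -2.03 to 0.94 included falls of more than 2-fold. It was -1.12 without the first *vhl-1* library and -0.09 without the second. The SD of the log2 level of *sod-5* within a genotype was 0.98, where counting error alone gives 0.41.

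**Figure D2:**
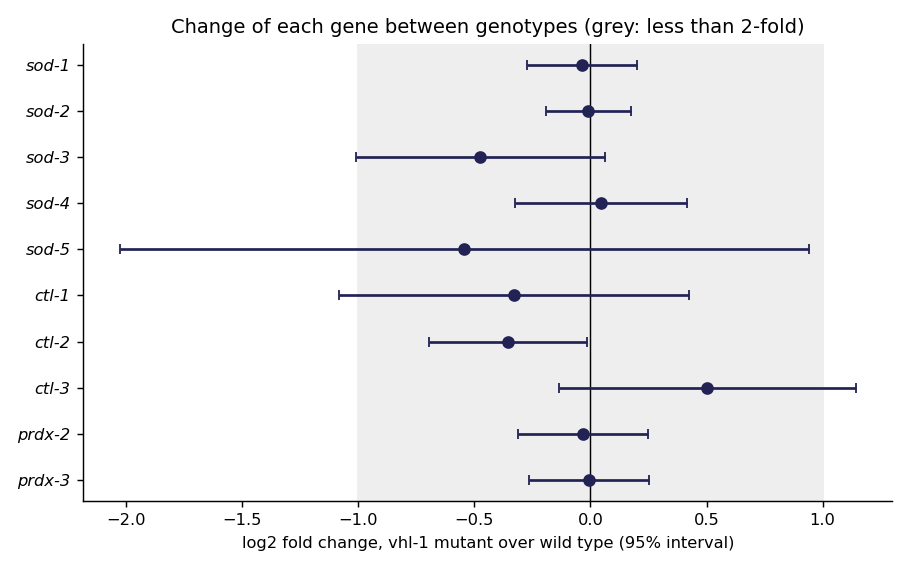
Log2 fold change of each gene in *vhl-1* mutants over wild type animals from edgeR's quasi-likelihood fit, with 95% intervals not adjusted for the number of genes. The grey band marks changes of less than 2-fold, which holds the whole interval of 6 genes, while the intervals of *sod-3*, *sod-5*, *ctl-1* and *ctl-3* reach beyond it.

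The 3 catalase genes stand in a row on the minus strand of chromosome II, within 11224 bases, with *ctl-2* from 14299556 to 14302027, *ctl-1* from 14303568 to 14306260 and *ctl-3* from 14307798 to 14310779. Only 1540 bases separate *ctl-2* from *ctl-1* and 1537 bases separate *ctl-1* from *ctl-3*. They are close paralogs, and the handling of reads that match several genes is not stated, so that the levels of *ctl-1* and *ctl-3* are uncertain. *ctl-2* (WBGene00000831), the peroxisomal catalase, was the only strongly expressed gene of the row. It had 111, 129 and 162 CPM in wild type animals and 102, 108 and 104 CPM in *vhl-1* mutants. Every *vhl-1* library was below the lowest wild type library, and the 3 were close together, with a coefficient of variation of 2.64% against 19.3% in wild type animals. The mean was 78.1% of the wild type mean. The log2 fold change of *ctl-2* was -0.36 (SE 0.14, 95% interval -0.70 to -0.02). Its unadjusted p of 0.043 from edgeR's quasi-likelihood test did not pass after adjustment over all genes (adjusted p = 0.50, DESeq2 adjusted p = 0.51). Leaving out single libraries gave *ctl-2* values from -0.47, without the first wild type library, to -0.20, without the third, and the lowest edgeR adjusted p over its alternatives was 0.18.

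Markers of stage also differed between the wild type libraries. The third wild type library was the highest and the first the lowest for *ctl-2* as for *sod-3*, and likewise for *sod-1*, *sod-4*, *ctl-1*, *prdx-2* and *prdx-3*. The summed yolk protein genes had 17322, 5682 and 4879 CPM in these wild type libraries and 6354, 796 and 3213 CPM in the *vhl-1* libraries. The summed larval cuticle and molting genes had 3186, 6050 and 7385 CPM in wild type animals and 5703, 5828 and 5902 CPM in *vhl-1* mutants. Oocyte and eggshell genes summed to between 652 and 2083 CPM in wild type animals and between 406 and 1713 CPM in *vhl-1* mutants. Across the *vhl-1* libraries *ctl-2* had between 102 and 108 CPM. The yolk sum of these libraries ranged from 796 to 6354 CPM and the larval cuticle and molting sum from 5703 to 5902 CPM. No gene of these 3 lists passed the threshold in edgeR, with 3 yolk genes at an unadjusted p under 0.05 and 1 called by DESeq2. The part of developmental timing in the levels of *ctl-2*, *sod-3* and the other genes was not tested. Of the 1611 exonic bases of *ctl-2*, 65 are shared with *Y54G11A.7* on the opposite strand, which rose in *vhl-1* mutants from a mean of 25.1 to 59.6 CPM (log2 fold change 1.25, edgeR adjusted p = 0.020). Its part in the count of *ctl-2* was not tested.

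*ctl-1* (WBGene00000830), the cytosolic catalase, was counted with 82 to 127 reads in a library. It had 1.17, 1.49 and 2.55 CPM in wild type animals and 1.38, 1.41 and 1.33 CPM in *vhl-1* mutants. The *vhl-1* libraries lay within the wild type range, whose upper end was the third library. Its log2 fold change was -0.33 (SE 0.31, 95% interval -1.08 to 0.42, edgeR adjusted p = 0.93), and it turned to 0.04 without the third wild type library. *ctl-3* (WBGene00013220), the third catalase gene, had 1.62, 1.15 and 1.79 CPM in wild type animals and 2.66, 1.67 and 2.13 CPM in *vhl-1* mutants. Only the second *vhl-1* library overlapped with the wild type libraries. *ctl-3* had the highest log2 fold change of the 10 genes, 0.50, which did not pass the threshold (SE 0.27, 95% interval -0.13 to 1.14, edgeR adjusted p = 0.72). With each library left out it lay between 0.32, without the first *vhl-1* library, and 0.66, without the second. With the reads of all 3 catalase genes added together the log2 fold change was -0.34 (SE 0.14) with an edgeR adjusted p of 0.53.

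*prdx-2* (WBGene00006434), on chromosome II from 5378195 to 5379631, encodes the cytosolic peroxiredoxin and was the most abundant mRNA of the 10, with 31704 to 48796 reads in a library. The wild type libraries had 498, 564 and 636 CPM and the *vhl-1* libraries had 538, 600 and 524 CPM. Every *vhl-1* library lay inside the wild type range. The log2 fold change of *prdx-2* was -0.03 (SE 0.12, 95% interval -0.31 to 0.25, edgeR adjusted p = 1.00). *prdx-3* (WBGene00011110), on chromosome III from 4407444 to 4408437, encodes the mitochondrial peroxiredoxin. It had 140, 156 and 164 CPM in wild type animals and 146, 170 and 141 CPM in *vhl-1* mutants. The genotypes overlapped, with the second *vhl-1* library the highest of all. For *prdx-3* the log2 fold change was -0.01 (SE 0.11, 95% interval -0.26 to 0.25, edgeR adjusted p = 1.00).

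Levels of different genes were compared per length, as CPM per kilobase of exon, and *prdx-2* was the highest with a mean of 741 CPM per kilobase over the 6 libraries. It was above 98.9% of the tested genes whose length is annotated. *sod-1* followed with 207 and *prdx-3* with 198 CPM per kilobase. These neighbours in the order did not differ beyond their spread, since *sod-1* was the higher in only 4 of 6 libraries. *sod-2* with 112 and *ctl-2* with 74.2 CPM per kilobase came next, and their ranges over the libraries did not overlap. *sod-4* was in the middle of the tested genes, with 10.4 CPM per kilobase and 52.7% of genes below it. The 4 lowest were *sod-3* with 1.78, *ctl-3* with 1.12, *ctl-1* with 1.00 and *sod-5* with 0.381 CPM per kilobase. The ranges of *sod-3* and *ctl-3* overlapped, as did those of *ctl-3* and *ctl-1*, whereas *ctl-1* was above *sod-5* in 6 of 6 libraries. From *prdx-2* to *sod-5* the mean level per length spanned a factor of 1945.

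**Figure D3:**
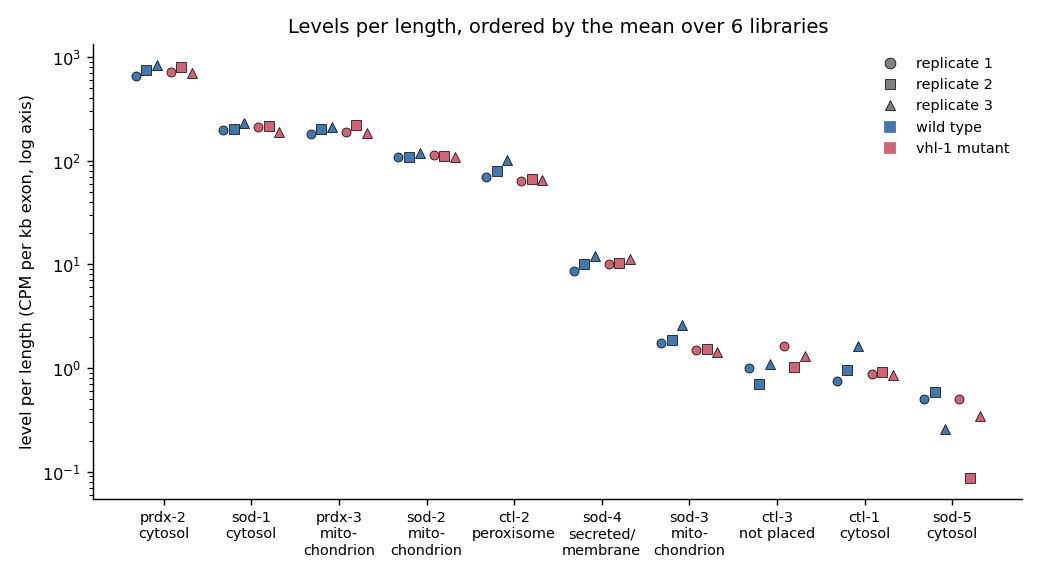
Level per length of each gene in every library, in CPM per kilobase of exon on a log axis, ordered by the mean over 6 libraries, with the compartment of the enzyme under its name. 5 genes lie above 60 CPM per kilobase in every library, *sod-4* lies near 10, and *sod-3*, *ctl-3*, *ctl-1* and *sod-5* lie below 3.

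Among the dismutases *sod-1* and *sod-2*, and among the catalases *ctl-2*, carried nearly all of the mRNA in both genotypes. *sod-1* made up 62.7% ± 0.633 (SD, n = 3) of the summed dismutase level per length in wild type animals and 62.3% ± 1.36 (SD, n = 3) in *vhl-1* mutants. *sod-2* made up 33.5% ± 0.899 and 33.9% ± 0.998 (SD, n = 3 each). The secreted or membrane-bound *sod-4* had 3.05% ± 0.313 and 3.23% ± 0.351 (SD, n = 3 each). *sod-3* was the only dismutase whose share did not overlap between genotypes, at 0.548%, 0.584% and 0.714% in wild type animals and 0.445%, 0.456% and 0.459% in *vhl-1* mutants. Among the catalases *ctl-2* held 97.6% ± 0.309 in wild type animals and 96.7% ± 0.501 in *vhl-1* mutants (SD, n = 3 each). These catalase shares carry the uncertainty of the *ctl-1* and *ctl-3* levels. Of the summed level of *prdx-2* and *prdx-3*, *prdx-2* held 79.0% ± 0.752 and 78.8% ± 0.473 (SD, n = 3 each). Another peroxiredoxin gene, *prdx-6*, is not in this sum and had a mean of 38.3 CPM in wild type animals and 38.5 CPM in *vhl-1* mutants.

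Sorted by compartment, the cytosolic genes (*sod-1*, *sod-5*, *ctl-1* and *prdx-2*) summed to 960 ± 108 CPM per kilobase in wild type animals and 939 ± 63.6 CPM per kilobase in *vhl-1* mutants (SD, n = 3 each). The mitochondrial genes (*sod-2*, *sod-3* and *prdx-3*) summed to 313 ± 20.6 and 310 ± 21.1 CPM per kilobase (SD, n = 3 each). Both sums overlapped between genotypes, and the *vhl-1* means were 97.7% and 99.3% of the wild type means. In wild type animals *prdx-2* alone had 749 CPM per kilobase of the cytosolic sum, and *sod-3* had 2.07 of the mitochondrial sum. Changes of *sod-3*, *sod-5* or *ctl-1* could therefore hardly show in these sums. The peroxisomal compartment, which *ctl-2* alone represents, had 83.3 ± 16.1 and 65.1 ± 1.72 CPM per kilobase (SD, n = 3 each) and did not overlap. The secreted or membrane compartment, *sod-4* alone, had 10.2 ± 1.72 and 10.6 ± 0.580 CPM per kilobase (SD, n = 3 each). By enzyme family, the summed level in *vhl-1* mutants was 98.1% of the wild type mean for the dismutases, 98.2% for *prdx-2* with *prdx-3* and 78.8% for the catalases. The sums are descriptions and were not tested.

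Ratios of related genes within a library do not depend on the scaling between libraries. The log2 ratio of *prdx-3* to *prdx-2* reads, mitochondrial to cytosolic peroxiredoxin, was nearly constant at -1.88 ± 0.0658 in wild type animals and -1.87 ± 0.0407 in *vhl-1* mutants (SD, n = 3 each). The ratio of *sod-3* to *sod-2* was -5.83, -5.72 and -5.37 in wild type animals and -6.10, -6.05 and -6.12 in *vhl-1* mutants. All *vhl-1* libraries thus held less *sod-3* beside *sod-2* than any wild type library. This repeats the lower *sod-3* level, since the log2 fold change of *sod-2* was -0.01. The ratio of *ctl-3* to *ctl-2* was -6.11, -6.80 and -6.51 in wild type animals and -5.27, -6.01 and -5.62 in *vhl-1* mutants, again without overlap, and the means differed by 0.84. The level of *ctl-3* alone overlapped between genotypes, and the ratio also holds the lower *ctl-2* level. As close paralogs with reads of unknown handling, both counts are uncertain. The ratio of *ctl-1* to *ctl-2* overlapped between genotypes, at -6.33 ± 0.302 and -6.25 ± 0.0384 (SD, n = 3 each). The ratio of *sod-5* to *sod-1* overlapped between genotypes, at -8.98 ± 0.761 and -9.72 ± 1.37 (SD, n = 3 each). These 5 ratios are descriptions and were not tested. How often the ratios of other gene pairs do not overlap was not determined, while 14.4% of all single genes tested did not overlap.

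**Figure D4:**
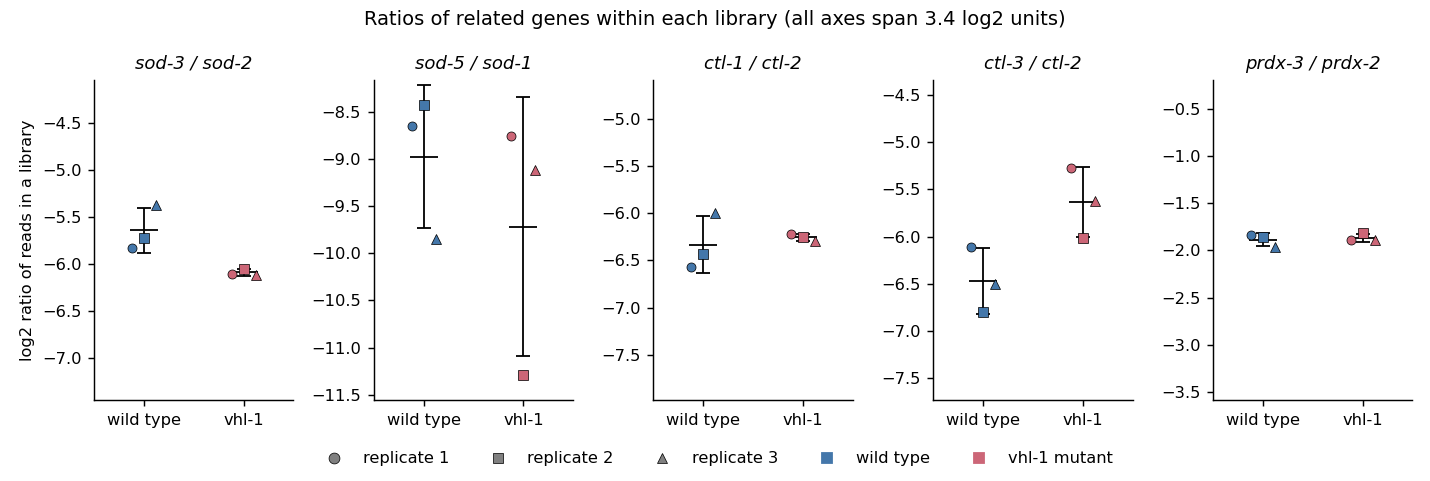
Log2 ratio of the raw reads of related genes in each library, wild type in blue and *vhl-1* mutants in red, with the mean as a line and the SD as bars (n = 3), on axes of equal span. The genotypes are apart for *sod-3* to *sod-2* and for *ctl-3* to *ctl-2* and overlap for the other 3 ratios. How often the ratios of other gene pairs lie apart was not determined.

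The third wild type library was the highest of its genotype for 9 of the 10 genes, all but *sod-5*, and for 39.4% of all tested genes. The third *vhl-1* library was the lowest of its genotype for 6 of the 10, against 21.1% of all tested genes. After removal of the genotype means, the log2 levels of the 10 genes correlated positively in 35 of 45 pairs, and those of all tested genes in 50.3% of pairs. *sod-5* and *ctl-3* were set apart after their values were seen. The other 8 genes correlated positively in all 28 pairs, with r from 0.45 (*sod-1* with *sod-4*) to 0.99 (*ctl-1* with *ctl-2*). That count follows in part from setting *sod-5* and *ctl-3* apart. Among all tested genes, 30.8% of pairs reached the lowest r of these 8 genes. *sod-5*, with only 5 to 30 reads in a library, correlated negatively with 8 of the other 9 genes. *ctl-3* correlated positively with 6 of the 8 genes other than *sod-5*, with r from -0.43 to 0.57. These correlations describe 6 libraries, which the genes share along with their scaling. Over the libraries of both genotypes, the tested genes most like *sod-3* in log2 CPM were *T02D1.8* (Pearson's r = 0.996), the acyl-CoA oxidase gene *acox-3* (0.993) and *C14A4.7* (0.992), each over 6 libraries, which again is a description. They were picked as the highest of all tested genes, with the genotype difference included. A high r thus follows in part from the search.

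The other enzymes of peroxide and thioredoxin metabolism gave a like picture. Of 14 genes listed, 13 passed the filter on low counts and none passed the threshold in edgeR's quasi-likelihood test, with 1 at an unadjusted p under 0.05 and 1 called by DESeq2. The median log2 fold change was 0.05. The thioredoxin gene *trx-1* did not pass this filter and was not called by DESeq2. *gpx-7*, which encodes a glutathione peroxidase, had a mean of 15.99 CPM in wild type animals and 10.1 CPM in *vhl-1* mutants. Every *vhl-1* library was lower than each wild type library, and the log2 fold change of -0.66 missed the threshold with edgeR (adjusted p = 0.14) and passed it with DESeq2 (adjusted p = 0.0096). *gpx-5* followed with -0.14, and the highest values were those of *gpx-8* (0.60) and *gpx-3* (0.57), all 3 without a call in either test. The thioredoxin reductase gene *trxr-1*, whose enzyme supplies electrons to thioredoxin, had a log2 fold change of 0.05.

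Of 8 genes for the dual oxidase BLI-3, which makes hydrogen peroxide at the cuticle, its relatives and heme peroxidases, 6 passed the filter on low counts. None of the 6 was called by edgeR or had an unadjusted p under 0.05 there, and DESeq2 called none of the 8. The log2 fold changes of the 6 lay between -0.66 (*skpo-1*) and 0.23 (*doxa-1*), with -0.12 for *skpo-3* and 0.14 for *mlt-7*. *bli-3* itself had 0.01.

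All 10 genes of the listed regulators were tested, and none was called by edgeR or DESeq2, with 2 at an unadjusted p under 0.05. These were *skn-1*, which encodes the Nrf-like transcription factor of the oxidative stress response, and *wdr-23*, which encodes its repressor. *skn-1* had 136, 126 and 129 CPM in wild type animals and 163, 158 and 175 CPM in *vhl-1* mutants, with every *vhl-1* library above every wild type library. Its log2 fold change was 0.34 (SE 0.08) with an adjusted p of 0.14 in edgeR and 0.11 in DESeq2, and that of *wdr-23* was 0.25 (edgeR adjusted p = 0.42). The lowest values were -0.13 for the kinase gene *nsy-1* and -0.12 for *hif-1*. *daf-16* mRNA had a log2 fold change of -0.01.

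Some other genes known as targets of DAF-16 differed between the genotypes, in both directions. Of 9 listed with earlier results of these data known, 8 passed the filter on low counts. In edgeR 2 rose, 2 fell and 4 did not pass the threshold, where 0.874% of all genes tested rose and 0.374% fell. Since the list was made with results known, its counts cannot be weighed against these shares. *mtl-1*, which encodes a metallothionein, rose from 0.827, 0.480 and 1.14 CPM to 23.4, 10.6 and 17.9 CPM (log2 fold change 4.41, edgeR adjusted p = 0.0078). *dod-3* rose by 2.81 on the log2 scale (edgeR adjusted p = 0.0059). *nnt-1*, which encodes the mitochondrial nicotinamide nucleotide transhydrogenase, fell from 10.4, 11.5 and 12.6 CPM to 2.72, 3.20 and 2.45 CPM (log2 fold change -2.04, edgeR adjusted p = 0.0035). *icl-1*, the glyoxylate cycle gene, fell with -1.09 (edgeR adjusted p = 0.027). The ferritin gene *ftn-1* had a log2 fold change of -1.84, without a call in edgeR (adjusted p = 0.056) and with a call in DESeq2 (adjusted p = 7.84e-06). The genes *sod-3*, *ctl-1* and *ctl-2*, which are DAF-16 targets as well, had the values given above and no call in either test.

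**Figure D5:**
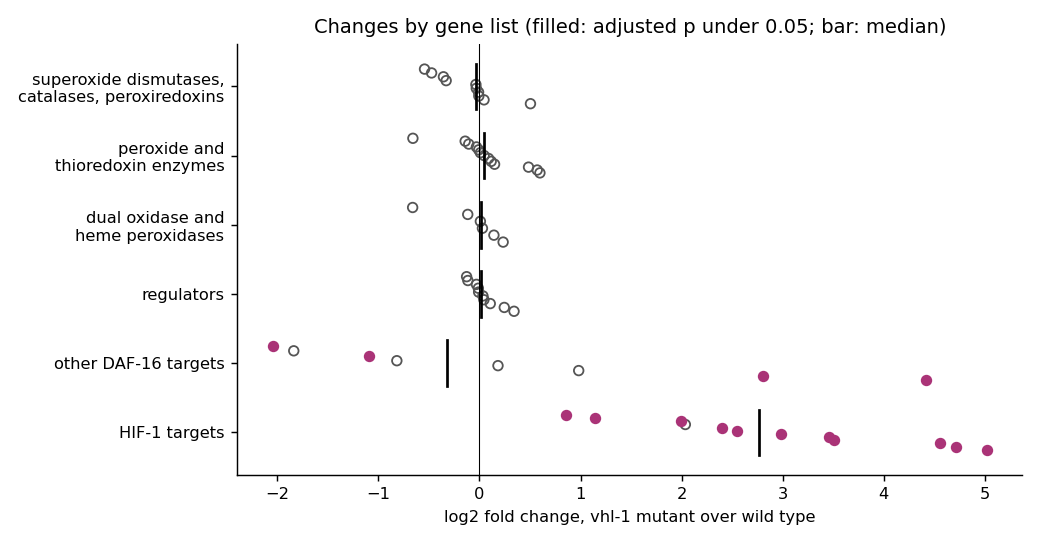
Log2 fold changes of the 10 genes and of the related lists, 1 point for each tested gene, filled where the edgeR adjusted p is under 0.05, with a bar at the median of the list. The 10 genes lie between -0.54 and 0.50 without a filled point, while the HIF-1 targets, whose members were listed with earlier results known, lie between 0.86 and 5.02.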

How the data were processed

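Reads of 50 bp, single-end, were trimmed by the authors with Trim Galore 0.4.3.1, aligned with STAR 2.6.0b and counted with featureCounts 1.6.3, per the paper's methods and the submitters' processing notes. The deposited values are raw read counts per gene. Genome build, annotation, strand setting and multi-mapped reads are not given in the sources used here, so overlapping genes and paralogs are uncertain. 1 blank row in each file, with 0 reads, was left out.

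Symbols, positions and exonic lengths came from Ensembl release 115 of WBcel235, which held 46603 of the 46778 identifiers. The counts were fitted with edgeR 4.0.16 under R 4.3.3 (filterByExpr, TMM, quasi-likelihood test on genotype, Benjamini-Hochberg adjustment over 16596 genes, threshold 0.05). Standard errors follow from the fold change and F statistic, 95% intervals from the t distribution of the fit. Spread was taken on log2(CPM + 0.01). The p-values set the genotype difference against the spread between these libraries, not between single animals. Chi-square per gene between replicates was at least 44.7, where sampling noise gives about 1. Tests and intervals were checked on simulated counts. Alternatives were DESeq2 1.42.0, other scalings and filters, a replicate block, each library left out, added catalase reads and coding length.

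The genes, lists and tests were chosen with earlier results of these data known. All 10 genes are named. The level of *vhl-1* served as the check of the labels, with the HIF-1 targets shown beside it and *rhy-1* as an example. The related lists are those of peroxide and thioredoxin enzymes, dual oxidase and heme peroxidases, regulators and DAF-16 targets. Of each list, genes past the threshold and the 2 highest and 2 lowest changes are named. Beyond this rule, *prdx-6*, *trx-1*, *trxr-1*, *bli-3* and *daf-16* were added after their values were seen. Marker lists for sperm and nervous system held 0 called genes.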

Additional observations from a re-analysis of the deposited data

How the results depend on the processing

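No gene of the 10 passed the threshold under any of the 14 alternatives run. The stricter threshold of 0.01 on the main fit is among them and could only repeat this outcome. Of the 132 log2 fold changes recomputed for single genes, 17 changed sign and none gained a call. With library size alone *sod-1* was 0.0012, *sod-2* 0.027, *prdx-2* 0.0054 and *prdx-3* 0.029, where the median of all genes was 0.040. With a library left out, *sod-1* lay between -0.081 and 0.035, *sod-2* between -0.041 and 0.029, *sod-4* between -0.066 and 0.17, *ctl-1* between -0.55 and 0.045, *prdx-2* between -0.12 and 0.056 and *prdx-3* between -0.093 and 0.046. With the catalase reads added together *ctl-3* became -0.34, since *ctl-2* holds most of these reads. *sod-5* could not be tested with at least 10 reads in every library.

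The 207 genes past the threshold over all genes became 654 with DESeq2, 354 with a replicate block in edgeR, 901 with a replicate block in DESeq2, 65 at an adjusted p under 0.01, and from 49 to 161 with a library left out. The cause was not tested. Same-numbered libraries deviated together with r of 0.54, 0.43 and -0.02, and differently numbered ones with r from -0.47 to 0.22. The labels state no pairing, so the main fit used genotype alone and the replicate block was an alternative. With the replicate block in edgeR, *ctl-2* kept an adjusted p of 0.33, the lowest of the 10. With coding in place of exonic length the *sod-4* share of the dismutase level was 4.58% in wild type animals and 4.85% in *vhl-1* mutants. Reads over the 6 libraries were fewest for *sod-5*, followed by *ctl-1*, *sod-3* and *ctl-3*, so counting error is largest for these genes.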
